A study of Mus musculus with 12 samples.

Results

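RNA-seq counts from the livers of 24 h-fasted mice were examined for 9 genes of glycogen metabolism among the 56748 genes of the count table. They comprise 4 glycogen-targeting subunits of protein phosphatase 1 (Ppp1r3b, Ppp1r3c, Ppp1r3d and Ppp1r3g), the liver glycogen synthase Gys2, the liver glycogen phosphorylase Pygl, the branching enzyme Gbe1, the UDP-glucose pyrophosphorylase Ugp2 and the glycogen-binding protein Stbd1. The 9 genes were chosen by name, with their counts across the 3 genotypes already known, so their values are given as a description. Where calls of a test across all genes are counted for them, nothing is read from these counts.

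Glycogen is built from UDP-glucose by glycogen synthase and the branching enzyme, and it is broken down by glycogen phosphorylase with the help of other enzymes. Phosphorylation switches the synthase off and the phosphorylase on, and protein phosphatase 1 removes these phosphates. A targeting subunit holds the phosphatase on the glycogen particle, and the subunits differ in tissue and in nutritional control. In the fed liver glycogen is stored, and during a fast it is released as glucose through glucose 6-phosphatase.

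The samples were 12 whole livers, 4 per genotype, all from mice fasted for 24 h. WT livers came from controls floxed for Cpt1a, Cpt1b and Cpt2. SKO livers carried a liver-specific deletion of Cpt2, which encodes carnitine palmitoyltransferase 2, an enzyme that long-chain fatty acids need to enter mitochondrial oxidation. DKO livers are labelled as carrying liver-specific deletions of both Cpt2 and Atf3, a stress-inducible transcription factor. In both knockouts the Cre recombinase was driven by the albumin promoter, which acts in hepatocytes, so cells of the liver that never used this promoter keep the genes. The controls were also floxed at Cpt1a and Cpt1b, which the knockout labels do not name, and are labelled without Cre, so genotype and breeding line cannot be told apart. Ages were not stated in the labels.

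Library depth ran from 14710304 to 20030055 counted reads. Expression is given below as CPM, that is read counts scaled to a common library size by edgeR's TMM method over the 12 livers, or as CPM per kilobase of gene length where genes are compared with each other. Cpt2 stood at 199 to 250 CPM for WT, 109 to 159 CPM for SKO and 99.9 to 125 CPM for DKO. Atf3 was at 1.11 to 2.14 CPM in WT, 14.5 to 54.0 CPM in SKO, 7.91 to 13.5 CPM in DKO replicates 1 to 3 and 0.266 CPM in DKO replicate 4. For Atf3, DKO replicates 1 to 3 thus lay above every WT liver and below every SKO liver, and DKO replicate 4 alone lay below WT. Counts over a whole gene include exons outside the deleted part, so they do not check a deletion by themselves. SKO replicate 3 and DKO replicate 4 had 18063 and 20855 counts of Xist, which is transcribed from the inactive X chromosome, and 2 and 0 counts over 4 Y-linked genes. The other 10 livers had 1 to 19 Xist counts and 2741 to 4294 Y-linked counts, so results are also given without these 2 livers. The study describes the DKO mice of its RNA-seq as male, which these counts of DKO replicate 4 go against. The labels name no batch.

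The hepatocyte marker list (8 of 8 genes present, including Alb and Hnf4a) summed to 73864 to 91989 CPM for WT, to 40258 to 70201 CPM for SKO, and to 41571 to 93617 CPM for DKO, where replicate 4 was the highest. Gene by gene, edgeR called 3 of the 8 lower and 0 higher in SKO against WT, where 15.4% of all genes were lower. In DKO against WT it called 1 of the 8 lower and 0 higher, where 4.39% of all genes were lower. In whole liver, fewer cells of a type and less RNA per cell cannot be told apart. Cholangiocyte markers summed to 27.9 to 33.3 CPM for WT, 7.41 to 14.5 CPM for SKO and 9.60 to 31.3 CPM for DKO, and erythroid markers to 111 to 243, 152 to 524 and 125 to 696 CPM, respectively. Of the 4 erythroid markers tested, edgeR called 2 higher and 1 lower in SKO against WT, where 16.7% of all genes were higher and 15.4% lower. The other lists overlapped between genotypes or differed by less than 2-fold, and all 5 skeletal muscle markers, Ckm and Acta1 among them, were under 1 CPM in every liver. The part of these lists in the values of the glycogen genes was not tested.

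Per kilobase, Gys2 and Ugp2 stood highest among the 9 genes in all 3 genotypes. In WT livers Gys2 was at 92.7 ± 11.9 CPM per kb (SD, n = 4, as for all group means here) and Ugp2 at 91.0 ± 5.68 CPM per kb, with ranges that overlapped. Stbd1 (42.4 ± 6.70), Pygl (40.8 ± 3.67), Ppp1r3b (31.2 ± 14.5), Ppp1r3c (22.6 ± 13.0) and Gbe1 (14.1 ± 1.30 CPM per kb) followed, and each of these up to Ppp1r3c overlapped with the one after it. Ppp1r3g, at 0.749 ± 0.520 CPM per kb, and Ppp1r3d, at 0.0800 ± 0.0497 CPM per kb, were last and overlapped with no neighbour. In SKO livers Ppp1r3g was the fourth of the 9 at 29.5 ± 24.3 CPM per kb, while Ppp1r3b and Ppp1r3c were at 2.47 ± 1.01 and 0.578 ± 0.372 CPM per kb. In DKO livers Ppp1r3g was again the fourth, at 21.0 ± 4.49 CPM per kb, with Ppp1r3b at 6.75 ± 7.05 and Ppp1r3c at 2.69 ± 1.80 CPM per kb. In DKO replicates 1 to 3 alone, Ppp1r3b was at 3.26 ± 1.18 and Ppp1r3c at 1.83 ± 0.597 CPM per kb (n = 3). The order of the others changed less, as Ugp2 (123 ± 13.7 CPM per kb) passed Gys2 (102 ± 37.4) in DKO livers with overlapping ranges, and Pygl came below Gbe1 in SKO livers only (11.2 ± 1.36 against 13.3 ± 1.54 CPM per kb, overlapping).

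**Figure D1:**
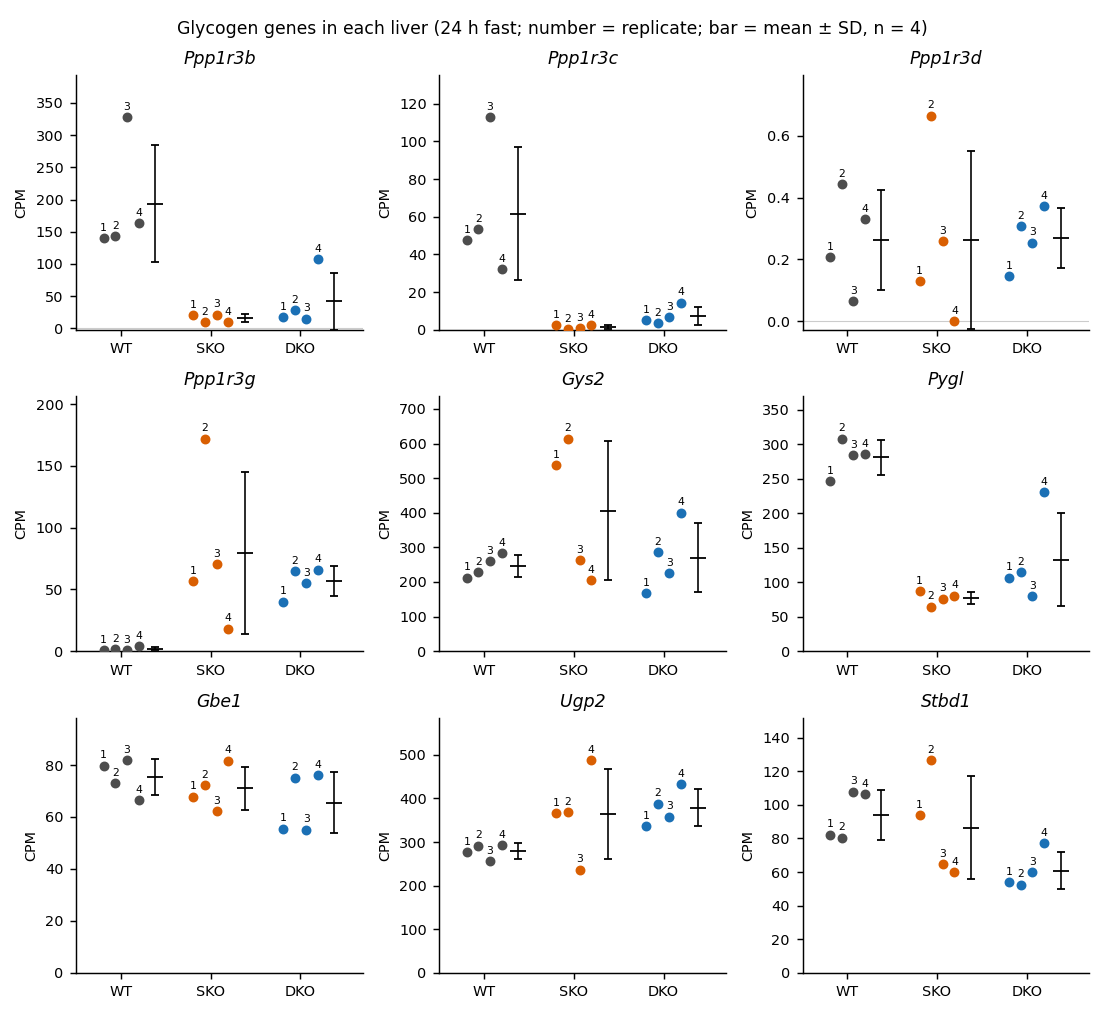
CPM of the 9 glycogen genes (vertical axes, linear) in the 12 livers, with a point for each liver numbered by its replicate, and bars for the mean ± SD of 4 livers of a genotype. Ppp1r3b, Ppp1r3c and Pygl lie lower in every SKO and DKO liver than in any WT liver, and Ppp1r3g lies higher.

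Of the 9 genes, 3 targeting subunits showed the widest differences between the knockouts and WT. Ppp1r3c (ENSMUSG00000067279), whose product is also known as protein targeting to glycogen, lies on the minus strand of chromosome 19 (chr19:36731731-36736653, GRCm38). It was counted at 47.6, 53.5, 113 and 32.2 CPM in WT replicates 1 to 4. In SKO replicates 1 to 4 it was at 2.27, 0.460, 0.987 and 2.58 CPM, which rest on 9 to 46 reads. In DKO replicates 1 to 4 it was at 5.06, 3.31, 6.56 and 14.4 CPM. The 3 genotypes did not overlap: every WT liver was above every DKO liver, and every DKO liver above every SKO liver. The log2 fold change was -5.31 ± 0.51 (SE) in SKO against WT, a 39.7-fold lower level, -3.04 ± 0.51 in DKO against WT, an 8.24-fold lower level, and 2.27 ± 0.58 in DKO against SKO. Without DKO replicate 4, the highest of its group, the log2 fold change was -3.60 against WT and 1.69 against SKO. Without WT replicate 3, the highest WT liver, it was -4.86 in SKO and -2.58 in DKO livers against WT.

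Ppp1r3b (ENSMUSG00000046794, chr8:35375739-35388139, plus strand, GRCm38) encodes the main targeting subunit of liver, which also binds the active form of glycogen phosphorylase. It was at 140, 143, 328 and 163 CPM in WT replicates 1 to 4 and at 20.4, 9.62, 21.2 and 10.2 CPM in the SKO livers. The DKO livers were at 16.8, 28.7, 15.2 and 107 CPM. All SKO and DKO livers were thus below the lowest WT liver, and DKO replicate 4 stood between its own group and WT. Fitted log2 fold changes were -3.66 ± 0.36 in SKO against WT (12.6-fold lower) and -2.19 ± 0.63 in DKO against WT (4.56-fold lower). Without DKO replicate 4 it was -3.26 ± 0.35 in DKO against WT, a 9.59-fold lower level. DKO and SKO livers overlapped, with a log2 fold change of 1.49 ± 0.61 with all livers and 0.40 without DKO replicate 4.

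Ppp1r3g (ENSMUSG00000050423, chr13:35958839-35970388, plus strand, GRCm38) went the other way. Its product is a targeting subunit that has been described in mouse liver as more abundant in the fasted than in the fed state. The WT livers were at 1.20, 1.77, 1.04 and 4.07 CPM, or 16 to 74 reads. The SKO livers were at 56.8, 172, 70.6 and 18.4 CPM, and the DKO livers at 40.1, 65.1, 54.9 and 66.1 CPM. No SKO or DKO liver came near the WT range, and DKO replicate 4, which was closest to WT for Ppp1r3b, was the highest of its group for Ppp1r3g. In log2 units the fold change was 5.28 ± 0.67 in SKO against WT (38.9-fold higher) and 4.81 ± 0.40 in DKO against WT (28.0-fold higher). The SKO value was 4.57 without SKO replicate 2, the highest of its group. Without WT replicate 4, the highest WT liver, it was 5.87 in SKO and 5.41 in DKO livers against WT. In DKO against SKO it was -0.47 ± 0.51, with DKO livers inside the wider SKO range, and it was 0.23 without SKO replicate 2. The noncoding gene Gm30127 overlaps Ppp1r3g on the other strand and had 0 to 4 reads in WT livers, 4 to 176 reads with SKO and 2 to 22 reads with DKO. Whether the counting used strand is not given in the sources used here, so reads of the overlap cannot be told apart. The noncoding genes that overlap Ppp1r3b, Pygl and Ugp2 had at most 29 reads in any liver.

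Ppp1r3d (ENSMUSG00000049999) encodes a widely expressed targeting subunit and was barely detected. Its reads per liver numbered 1 to 7 (WT), 0 to 13 (SKO) and 3 to 7 (DKO), with group means of 0.261 ± 0.162, 0.264 ± 0.288 and 0.269 ± 0.0963 CPM. The absence of reads in SKO replicate 4 allows up to 3 reads, or 0.168 CPM, and this limit covers counting error only. Ppp1r3d did not pass the filter on low counts, and a difference between genotypes was not detectable at this depth.

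Set against each other per kilobase, the 4 subunits changed places between genotypes. In WT livers Ppp1r3b made up 57.6 ± 5.82% of their summed CPM per kb, Ppp1r3c 40.5 ± 7.17% and Ppp1r3g 1.71 ± 1.47%. In SKO livers Ppp1r3g made up 85.1 ± 10.2%, Ppp1r3b 11.0 ± 6.35% and Ppp1r3c 3.71 ± 4.43%. In DKO livers Ppp1r3g made up 72.3 ± 13.7%, Ppp1r3b 18.8 ± 12.0% and Ppp1r3c 8.57 ± 3.13%. The share of Ppp1r3g was thus at most 3.80% in any WT liver and at least 52.0% in any knockout liver, the lowest being DKO replicate 4, without which the DKO livers were at 76.3 to 80.5%. The sum itself overlapped between genotypes, at 39.7 to 94.7 CPM per kb for WT, 9.41 to 65.8 for SKO and 19.5 to 47.2 for DKO. Ppp1r3d took at most 0.312% of the sum. Ppp1r3e, a further targeting subunit that is no member of the 9, was not in the sum and stood at 2.92 ± 0.618, 3.23 ± 0.662 and 3.34 ± 0.524 CPM per kb in WT, SKO and DKO livers. These group means lay above that of Ppp1r3g in WT, above those of Ppp1r3b and Ppp1r3c in SKO and above that of Ppp1r3c in DKO livers. In DKO replicates 1 to 3 Ppp1r3e had a mean of 3.59 ± 0.189 CPM per kb (n = 3), which was also above that of Ppp1r3b. These are shares of transcripts and not of protein.

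**Figure D2:**
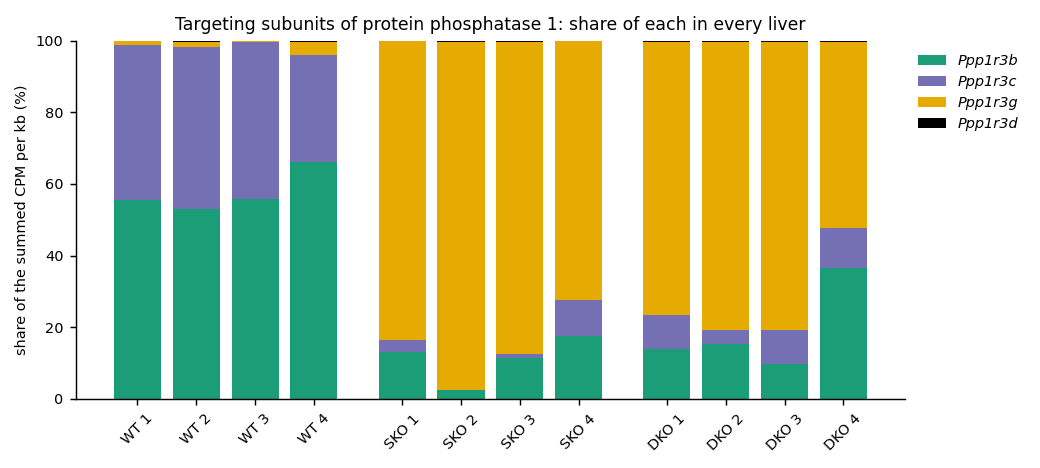
Share (%) of each of 4 targeting subunits of protein phosphatase 1 in their summed CPM per kb, as stacked bars from 0 to 100 for each of the 12 livers. Ppp1r3b and Ppp1r3c fill the WT bars, whereas Ppp1r3g takes 52.0 to 97.1% of the SKO and DKO bars.

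RefSeq sequences (GRCm38.p6) before the transcription start matched 7 of the 9 genes, all but Ppp1r3b and Gys2. Those of Ppp1r3c, Ppp1r3g and Pygl are shown because, of the 7, these had the widest fold changes in both knockouts against WT. The 250 bases before the RefSeq start are printed 5′ to 3′ on the strand of the gene, with matches to any of 5 motifs in capitals. The motifs, searched on both strands, were the cyclic AMP response element TGACGTCA and the core TGACG that it contains, the AP-1 site TGANTCA, the FoxO site GTAAACA and the E-box CACGTG.
Ppp1r3c, chr19:36736605-36736854, minus strand: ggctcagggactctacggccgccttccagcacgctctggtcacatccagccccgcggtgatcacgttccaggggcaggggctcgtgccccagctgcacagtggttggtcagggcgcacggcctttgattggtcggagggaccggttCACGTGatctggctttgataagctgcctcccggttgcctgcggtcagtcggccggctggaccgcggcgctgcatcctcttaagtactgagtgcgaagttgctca
Ppp1r3g, chr13:35967656-35967905, plus strand: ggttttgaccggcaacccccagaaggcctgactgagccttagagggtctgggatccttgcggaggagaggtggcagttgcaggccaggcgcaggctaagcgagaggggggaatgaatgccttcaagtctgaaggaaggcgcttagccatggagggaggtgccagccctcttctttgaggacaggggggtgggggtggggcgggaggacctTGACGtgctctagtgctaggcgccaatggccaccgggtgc
Pygl, chr12:70227684-70227933, minus strand: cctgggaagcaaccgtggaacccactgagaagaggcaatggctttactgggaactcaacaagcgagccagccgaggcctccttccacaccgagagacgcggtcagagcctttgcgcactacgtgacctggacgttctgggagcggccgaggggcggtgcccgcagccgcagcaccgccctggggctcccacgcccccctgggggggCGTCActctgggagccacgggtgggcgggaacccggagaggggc

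The Ppp1r3c window held 1 E-box, 104 bases before the start, and none of the other motifs. The Ppp1r3g window held 1 core of the cyclic AMP response element, 40 bases before the start, and the Pygl window 1 core on the other strand, 44 bases before it. Among the 32851 promoter windows of the same length, 17.8% held the core, 6.02% the E-box, 1.55% the full element, 6.75% the AP-1 site and 3.17% the FoxO site. Ppp1r3d held 2 cores and 1 E-box, which overlaps with 1 of them, and the windows of Gbe1, Ugp2 and Stbd1 held none of the 5 motifs. The windows of Ppp1r3g and Pygl lie inside the gene spans given by GENCODE, which include a transcript that starts further upstream, and that of Ppp1r3c reaches into the first bases of its span. A match is a stretch of letters and does not show binding.

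Among the enzymes, the phosphorylase differed most between genotypes. Pygl (ENSMUSG00000021069, chr12:70190811-70231488, minus strand, GRCm38), which splits glucose 1-phosphate from glycogen, was at 247, 308, 284 and 285 CPM in WT livers. The SKO livers were at 86.9, 64.7, 76.2 and 80.6 CPM and the DKO livers at 107, 114, 79.3 and 231 CPM. Every knockout liver was below every WT liver, and DKO replicate 4 was just below the lowest of them. Pygl had a log2 fold change of -1.87 ± 0.13 in SKO against WT (3.65-fold lower) and -1.07 ± 0.30 in DKO against WT (2.09-fold lower), and -1.49 ± 0.14 in DKO against WT without DKO replicate 4. In DKO against SKO it was 0.82 ± 0.31 with overlapping ranges, and 0.38 without DKO replicate 4.

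Gys2 (ENSMUSG00000030244), which adds glucose to the glycogen chain, overlapped between all 3 genotypes. The WT livers were at 213, 229, 259 and 284 CPM, the SKO livers at 538, 614, 263 and 206 CPM and the DKO livers at 168, 286, 226 and 400 CPM. SKO replicates 1 and 2 were above all other livers, whereas SKO replicates 3 and 4 lay in or near the WT range. For Gys2 the log2 fold change was 0.72 ± 0.30 in SKO against WT, 0.15 ± 0.24 in DKO against WT and -0.56 ± 0.38 in DKO against SKO. The SKO value against WT was 0.45 ± 0.28 without SKO replicate 2 and 0.94 ± 0.25 without SKO replicate 4. Without DKO replicate 4 the DKO value against WT was -0.12 ± 0.17, on the other side of 0. With SKO replicate 3 and DKO replicate 4 left out, the DKO value against SKO was -0.99 ± 0.34, with overlapping ranges.

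Ugp2 (ENSMUSG00000001891), which makes the UDP-glucose that the synthase uses, was at 276, 292, 256 and 293 CPM in WT livers, at 366, 368, 237 and 488 CPM in SKO livers and at 336, 388, 358 and 433 CPM in DKO livers. All DKO livers were above all WT livers by a small margin, and the same held for SKO livers except replicate 3. For Ugp2 the log2 fold change was 0.38 ± 0.19 in SKO against WT, 0.45 ± 0.13 in DKO against WT and 0.08 ± 0.22 in DKO against SKO. The SKO value against WT was 0.54 ± 0.14 without SKO replicate 3 and 0.22 ± 0.17 without SKO replicate 4.

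Gbe1 (ENSMUSG00000022707) forms the branch points of glycogen, and its levels lay close together in the 3 genotypes. WT livers were at 66.6 to 81.9 CPM, SKO livers at 62.2 to 81.7 CPM and DKO livers at 55.2 to 76.0 CPM. The log2 fold change was -0.09 ± 0.12 in SKO against WT, -0.19 ± 0.15 in DKO against WT and -0.09 ± 0.17 in DKO against SKO, and the ranges overlapped in each comparison.

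Stbd1 (ENSMUSG00000047963) encodes a membrane protein that binds glycogen and takes part in its transfer to lysosomes. It was at 82.2, 80.5, 108 and 106 CPM in WT livers and at 93.7, 127, 64.7 and 60.1 CPM in SKO livers, whose range enclosed that of WT. The DKO livers, at 54.1, 52.4, 60.0 and 77.0 CPM, were all below the WT livers. The log2 fold change was -0.13 ± 0.22 in SKO against WT, -0.62 ± 0.17 in DKO against WT (1.53-fold lower) and -0.48 ± 0.25 in DKO against SKO. Without DKO replicate 4 the DKO value against WT was -0.76 ± 0.13. With SKO replicate 3 and DKO replicate 4 left out, the DKO value against SKO was -0.74 ± 0.24, and these ranges did not overlap.

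**Figure D3:**
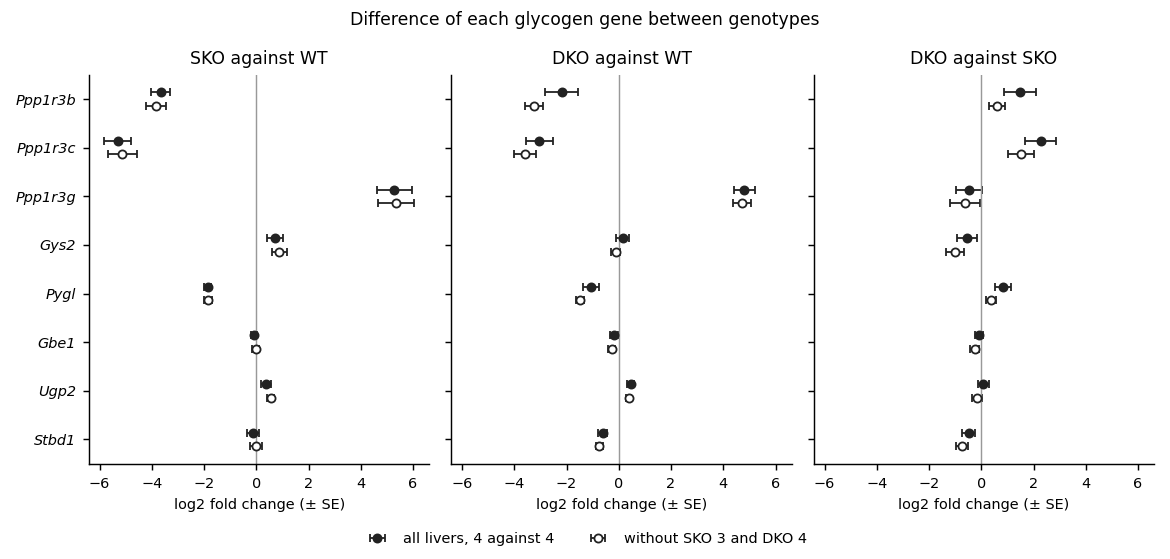
Log2 fold change (horizontal axis) with its SE for the 8 glycogen genes that passed the filter, in SKO against WT, DKO against WT and DKO against SKO. Filled points use 4 livers per genotype and open points leave out SKO replicate 3 and DKO replicate 4; in DKO against WT the open points of Ppp1r3b, Ppp1r3c and Pygl lie further from 0 than the filled ones.

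The counts of calls are given with those over all genes, and nothing is read from them since the genes were chosen with these counts known. In SKO against WT, 4 of the 8 genes that passed the filter were past the threshold of an adjusted p under 0.05 by edgeR's quasi-likelihood test, with Ppp1r3g higher and Ppp1r3b, Ppp1r3c and Pygl lower, where 32.1% of all 14261 genes tested were past it, 16.7% higher and 15.4% lower. The ranges of these 4 genes did not overlap between SKO and WT, as was so for 33.2% of all genes tested. Without SKO replicate 3, 6 of 8 were past the threshold, with Gys2 and Ugp2 added, where 32.5% of all genes were. Without SKO replicate 4 it was 5 of 8, with Gys2 added, where 4097 of the genes tested in that fit were, whose number is not given here. In DKO against WT, 4 of 8 were past the threshold, with Ppp1r3g higher and Ppp1r3c, Pygl and Stbd1 lower, where 10.5% of the 14448 genes tested were past it, 6.06% higher and 4.39% lower. Ranges did not overlap between DKO and WT for 6 of the 9 genes, namely Ppp1r3g and Ugp2 (higher) and Ppp1r3b, Ppp1r3c, Pygl and Stbd1 (lower), and for 16.8% of all genes tested. By DESeq2, 6 of the 9 were past the threshold, with Ppp1r3b and Ugp2 added, where 2508 of the genes that DESeq2 tested were. The number it tested is not given here, so no share is set beside this count. Both comparisons use the same WT livers. Without DKO replicate 4, 6 of 8 genes were past the threshold, with Ppp1r3b and Ugp2 added, where 35.9% of all genes were. In the 7 fits without another liver 1 or 2 of the 8 were past it, where 244 to 719 of the genes tested were, whose numbers are not given here. The call of Ppp1r3g held without any single liver and that of Ppp1r3c was lost without DKO replicate 3 alone, whereas those of Pygl and Stbd1 held only without DKO replicate 4. In DKO against SKO, edgeR put 0 of 8 past the threshold, where 0.0209% of the 14363 genes tested were, and DESeq2 called 1, Ppp1r3c, where it called 0.542% of genes. An unadjusted edgeR p under 0.05 was found for 3 of 8, beside 6.49% of all genes tested. With all livers, only the ranges of Ppp1r3c did not overlap between DKO and SKO, as was so for 3.94% of genes tested. Those of Stbd1 too did not overlap without SKO replicate 3 and DKO replicate 4, for which no share over all genes is given here. The median log2 fold change of the 8 genes was -0.11 in SKO against WT, -0.40 in DKO against WT and -0.01 in DKO against SKO, beside 0.03, 0.03 and 0.01 over all genes tested.

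The other genes of glycogen metabolism were taken from a list of 38 genes, of which 35 were tested. This list too was chosen with earlier results of these data known, so its counts and adjusted p are not independent evidence. In SKO against WT, 6 rose and 8 fell (edgeR, adjusted p under 0.05), and 21 did not pass, where 32.1% of all genes passed. The median log2 fold change of the 35 genes was 0.07, beside 0.03 over all genes. In DKO against WT, 1 rose and 3 fell, where 10.5% of all genes passed, and the median was -0.06. Without DKO replicate 4, 6 rose and 7 fell, where 35.9% of all genes passed.

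Of the genes that handle glucose and glucose 6-phosphate, 4 of 7 fell in SKO livers and none rose (edgeR), where 15.4% of all genes fell and 16.7% rose. Gckr, a regulatory protein of hepatic glucose phosphorylation, fell from 231 ± 20.1 CPM in WT to 47.4 ± 10.2 CPM in SKO livers (log2 fold change -2.29 ± 0.17, edgeR adjusted p = 3.51e-06). Slc2a2, the glucose transporter of hepatocytes, fell from 437 ± 35.3 to 124 ± 27.2 CPM (-1.82 ± 0.16, edgeR adjusted p = 1.58e-05). Slc37a4, which carries glucose 6-phosphate into the endoplasmic reticulum, fell from 345 ± 31.9 to 157 ± 21.8 CPM (-1.13 ± 0.14, edgeR adjusted p = 9.95e-05). G6pc, the catalytic subunit of glucose 6-phosphatase, fell from 538 ± 115 to 191 ± 98.8 CPM (-1.50 ± 0.32, edgeR adjusted p = 0.00414). These 4 transcripts lay lower in every SKO liver than in any WT liver, and ranges did not overlap for 33.2% of all genes tested. The calls of Gckr, Slc2a2, Slc37a4 and G6pc held without any single liver. The hexokinases Hk1, Hk2 and Hk3 did not pass.

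In DKO livers edgeR called 1 of these 7 genes, Slc37a4, which fell to 164 ± 32.9 CPM (log2 fold change -1.06 ± 0.17 against WT, edgeR adjusted p = 0.00982), where 4.39% of all genes fell, and its call held without any single liver. DKO replicate 4 stood apart from its group. Gckr was at 104, 101 and 107 CPM in DKO replicates 1 to 3 and at 315 CPM in replicate 4 and Slc2a2 at 84.3, 114 and 128 CPM and at 359 CPM. Without that liver, Gckr and Slc2a2 fell in DKO against WT (log2 fold changes -1.15 ± 0.11 and -2.00 ± 0.15, edgeR adjusted p = 2.03e-05 and 5.05e-06), as did G6pc (-1.15 ± 0.25, edgeR adjusted p = 0.00474). With all livers edgeR did not call Gckr and Slc2a2 (-0.54 ± 0.36 and -1.33 ± 0.41, edgeR adjusted p = 0.352 and 0.0644) or G6pc (-0.91 ± 0.29, edgeR adjusted p = 0.0743), while DESeq2 called Slc2a2 and G6pc (adjusted p = 0.00742 and 0.0194). Over all alternative fits the edgeR or DESeq2 adjusted p ranged from 2.03e-05 to 0.588 for Gckr, from 5.05e-06 to 0.168 for Slc2a2 and from 0.00474 to 0.182 for G6pc. In DKO against SKO, edgeR called 0 of the 35 genes and DESeq2 called Gckr alone, where they called 0.0209% and 0.542% of all genes. An unadjusted edgeR p under 0.05 was found for 2 of the 35, Gckr and Epm2a, beside 6.49% of all genes tested. Every DKO liver was above every SKO liver for Epm2a (log2 fold change 0.79 ± 0.21, edgeR adjusted p = 0.454) and for Gckr (1.77 ± 0.39, edgeR adjusted p = 0.396), and without DKO replicate 4 Gckr was past the threshold (1.14 ± 0.18, edgeR adjusted p = 0.0471, with 0.00229 to 0.820 over all alternative fits).

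Of the kinases that act on synthase and phosphorylase, 3 of 13 rose and 3 fell in SKO livers, where 16.7% of all genes rose and 15.4% fell. Subunits of the AMP-activated protein kinase, which phosphorylates glycogen synthase, moved in both directions. Prkab2, the subunit beta 2, rose from 3.37 ± 0.835 to 8.59 ± 2.40 CPM (log2 fold change 1.35 ± 0.25, edgeR adjusted p = 0.00164), while Prkab1, the subunit beta 1, fell from 28.3 ± 4.29 to 18.3 ± 0.684 CPM (-0.63 ± 0.13, edgeR adjusted p = 0.00339). Prkag2 fell (-0.78 ± 0.14, edgeR adjusted p = 0.00128) and Prkaa2 rose (0.66 ± 0.20, edgeR adjusted p = 0.0256), though the call of Prkaa2 was lost in 6 of the 8 fits that left out 1 liver, with an adjusted p of up to 0.0703. Phka2, the liver regulatory subunit of phosphorylase kinase, fell by 0.76 ± 0.15 on the log2 scale (edgeR adjusted p = 0.00275), and Gsk3a, a kinase that inactivates glycogen synthase, rose by 0.57 ± 0.11 (edgeR adjusted p = 0.00231). In DKO against WT, Prkab2 rose (1.72 ± 0.41, edgeR adjusted p = 0.0324) and Prkab1 and Prkag2 fell (-0.47 ± 0.13 and -0.49 ± 0.13, edgeR adjusted p = 0.0438 and 0.0401). Each of these 3 calls was lost in 6 or 7 of the 8 fits without 1 liver, where the adjusted p reached 0.0969 to 0.119. These 3 calls held without DKO replicate 4, where 35.9% of all genes passed. Prkab2 was then at 2.00 ± 0.25, Prkab1 at -0.44 ± 0.13 and Prkag2 at -0.55 ± 0.12. Their edgeR adjusted p was 0.000113, 0.0213 and 0.00457. Phka2 was lower in every DKO than in any WT liver (-0.62 ± 0.18, edgeR adjusted p = 0.0525, DESeq2 adjusted p = 0.0211). Without DKO replicate 4 edgeR also called Phka2, Prkaa2 and Gsk3a (-0.80, 0.58 and 0.39, adjusted p = 0.000707, 0.0145 and 0.0316).

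**Figure D4:**
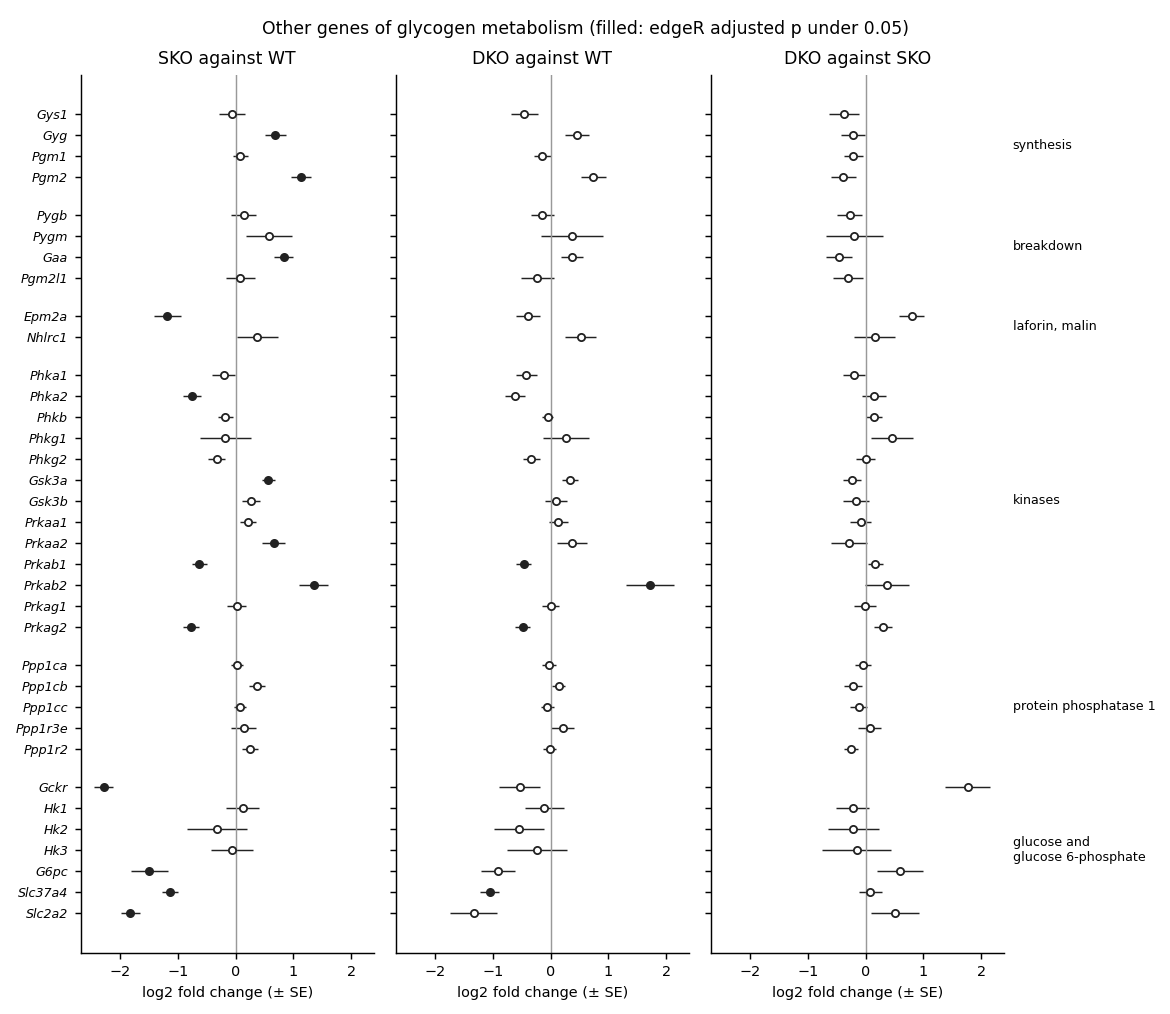
Log2 fold change (horizontal axis) with its SE for 35 other genes of glycogen metabolism, grouped by function, in 3 comparisons of genotypes with 4 livers each. Filled points passed an edgeR adjusted p of 0.05: 14 in SKO against WT, 4 in DKO against WT and 0 in DKO against SKO.

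Of the genes of synthesis, Gyg (glycogenin, which primes the chain) rose from 6.53 ± 0.708 to 10.6 ± 1.75 CPM in SKO livers (log2 fold change 0.69 ± 0.17, edgeR adjusted p = 0.0104). Pgm2, a phosphoglucomutase, rose from 4.69 ± 0.480 to 10.3 ± 1.51 CPM (1.13 ± 0.17, edgeR adjusted p = 0.000515). Gys1, the synthase of other tissues, and Pgm1 did not pass. Of the genes of breakdown, Gaa, the lysosomal alpha-glucosidase, rose from 137 ± 10.6 to 243 ± 53.9 CPM (0.83 ± 0.16, edgeR adjusted p = 0.00200). The other phosphorylases Pygb and Pygm, and Pgm2l1, did not pass. Epm2a (laforin, which removes phosphate from glycogen) fell from 7.40 ± 1.82 to 3.27 ± 0.481 CPM (-1.18 ± 0.23, edgeR adjusted p = 0.00202), while its partner Nhlrc1 (malin) did not pass (0.37 ± 0.36, edgeR adjusted p = 0.468). In DKO against WT edgeR called none of these genes with all livers. Pgm2 had a log2 fold change of 0.74 ± 0.22 (edgeR adjusted p = 0.0608, with 0.00343 to 0.152 over all alternative fits), and DESeq2 called it (adjusted p = 0.0305). Without DKO replicate 4 edgeR called Pgm2, Gyg and Gaa higher than WT, where 35.9% of all genes passed. Their log2 fold changes were then 0.88 ± 0.18, 0.60 ± 0.17 and 0.50 ± 0.14 (edgeR adjusted p = 0.00343, 0.0171 and 0.0161).

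None of 5 further phosphatase genes tested passed in any comparison of 4 against 4 livers, by the main edgeR fit or DESeq2. They were the catalytic subunits Ppp1ca, Ppp1cb and Ppp1cc, the inhibitor Ppp1r2 and the targeting subunit Ppp1r3e. Ppp1cb was higher in every SKO than in any WT liver (log2 fold change 0.36 ± 0.14, edgeR adjusted p = 0.0711). Over all alternative fits its edgeR or DESeq2 adjusted p ranged from 0.0498 to 0.192. Ppp1r3a, the targeting subunit of muscle, had at most 2 reads in any liver, and Ppp1r3f had 3 to 13 reads. Neither passed the filter on low counts.

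The genes whose centred log2 CPM over the 12 livers was nearest to that of the 3 glycogen genes with the widest range of group means are given as a description. For Ppp1r3b they were Cth (cystathionine gamma-lyase), Hao1 (a peroxisomal hydroxyacid oxidase) and Gm4756, with root mean square differences of 0.39, 0.44 and 0.46 on the log2 scale, beside a deviation of Ppp1r3b about its own mean of 1.72. Cth was at 871 ± 101 CPM in WT, 82.6 ± 26.4 CPM in SKO and 73.3 to 686 CPM in DKO livers. For Ppp1r3c they were Ido2, Aox3 (an aldehyde oxidase) and the noncoding gene Gm45470, at 0.69, 0.76 and 0.82 beside 2.31. For Ppp1r3g they were Acot2 (a mitochondrial acyl-CoA thioesterase), Gdf15 (a secreted stress factor) and Gm47528, at 1.04, 1.08 and 1.10 beside 2.47. Acot2 was at 11.5 ± 3.41 CPM in WT, 343 ± 138 CPM in SKO and 139 ± 70.2 CPM in DKO livers. The search covered 13072 genes of mean CPM at least 1, and the 12 livers fall into only 3 genotypes.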

How the data were processed

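The authors deposited read counts per Ensembl gene without normalization, and FPKM values that in each liver are the counts scaled by depth and gene length times a constant of 0.886 to 1.17. The submitters' processing notes name HISAT2 and GRCm38 (mm10), but the deposited gene coordinates equal those of GENCODE M21 (GRCm38) for 0 of the 9 genes and for 1435 of 52073 shared genes. Positions here are from GENCODE M21 by gene ID. The counting program and annotation are not given in the sources used here. Depth was 14710304 to 20030055 counts per liver, and no columns were left over.

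Each pair of genotypes was fitted on its own 8 livers with edgeR 4.0.16 in R 4.3.3 (TMM, filterByExpr, quasi-likelihood test, two-sided, Benjamini-Hochberg over all genes tested, threshold 0.05). The SE is the log2 fold change divided by the square root of F. CPM used TMM over 12 livers. The fit was tested on simulated data. Alternatives were DESeq2 1.42.0, RLE normalization, no filter, a replicate block, 1 fit of 12 livers, each liver left out, only livers with Y-linked counts, and the deposited FPKM. The labels name separate livers, and counts of any pair within a genotype differed by a chi-square of at least 18.5 per degree of freedom, so none was a copy.

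Gene names were fixed by rule: the 9 genes, called genes of the list of 38 and any others where their class is described, the 3 nearest genes by centred log2 CPM (prior count 2) to each of the 3 genes with the widest range, and checks of labels. The 9 genes and all lists were chosen with earlier results of these data known. A pair of genes first listed is not reported here. Deposited fold changes and p-values of the authors were not used.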

Additional observations from a re-analysis of the deposited data

Results flagged for a closer look

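Among 69 sets of 4 livers (the 9 glycogen genes and 14 further called genes in 3 genotypes), 5 held a liver whose gap to its nearest neighbour was above Dixon's critical share of the range, where chance alone flags about 1 in 20, or 3.45 sets. WT replicate 3 was high for Ppp1r3b at 328 CPM, with the others at 140 to 163 CPM. WT replicate 2 was high for Gaa at 152 CPM, with the others at 129 to 133 CPM. DKO replicate 4, which has Xist counts and the fewest Atf3 counts of the 12 livers, was high for Ppp1r3b at 107 CPM (others 15.2 to 28.7 CPM). In the same liver Gckr was at 315 CPM (others 101 to 107 CPM) and Slc2a2 at 359 CPM (others 84.3 to 128 CPM). The part of sex or of Atf3 level in these values was not tested, since this is 1 liver.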

How the results depend on the processing

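In SKO against WT no count moved by over 1.5 times under any setting, and leaving out 1 liver gave 3617 to 4711 genes in all, 4 to 6 of the 9 glycogen genes and 13 to 15 of the other glycogen genes. In DKO against WT the counts depended on DKO replicate 4, without which 5253 genes, 6 of the 9 and 13 other glycogen genes passed. Those are also the values with only livers with Y-linked counts. Leaving out 1 liver gave 244 to 5253, 1 to 6 and 1 to 13, in this order. DESeq2 gave 2508 genes and 8 other glycogen genes, and 1 fit of 12 livers gave 7 of the latter. In DKO against SKO the count of all genes was 91 by DESeq2, 35 with no filter, 21 with only livers with Y-linked counts and 0 to 15 with 1 liver left out. DESeq2 called 1 of the 9 genes, and leaving out 1 liver gave 0. For the other glycogen genes DESeq2, no filter and only livers with Y-linked counts gave 1 each, and leaving out 1 liver gave 0 to 1. The cause was not tested.

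With a replicate block, 4111, 691 and 0 genes passed in SKO against WT, DKO against WT and DKO against SKO, with 4, 3 and 0 of the 9 genes and 14, 3 and 0 other glycogen genes. Same-numbered livers did not deviate together (r of -0.338 to 0.09 over 12 pairs), so the numbers give no pairing.

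Among the 9 glycogen genes, log2 fold changes turned sign only where the value with all livers lay within 1 SE of 0. With 1 liver left out, Stbd1 in SKO against WT ran from -0.37 to 0.017 (0.017 without SKO replicate 4), Gys2 in DKO against WT from -0.12 (without DKO replicate 4) to 0.32, Ppp1r3g in DKO against SKO from -0.80 to 0.23 (without SKO replicate 2), and Ugp2 in DKO against SKO from -0.078 (without SKO replicate 3; -0.0049 without DKO replicate 4) to 0.24. With only livers with Y-linked counts, Gys2 was -0.12 in DKO against WT and Ugp2 -0.16 in DKO against SKO. All 27 group levels per kilobase differed from the deposited FPKM by less than 1 SD. RLE moved the median of all genes by at most 0.02 on the log2 scale.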
